A study of Mus musculus with 44 samples.

Results

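The genes of cholesterol synthesis, cholesterol control, efflux and intracellular transport were followed in RNA-seq of satellite glial cells (SGCs), which enclose the cell bodies of sensory neurons, and of isolated sensory neurons from mouse dorsal root ganglia (DRGs). The members were 34 genes chosen by symbol for their place in the pathway, out of 45882 genes listed in each of the glial tables and 12170 in the neuron table. Of these, 33 had a row in the glial tables and 32 in the neuron table: Mvd had no row in any of the 3 and Mylip none in the neuron table, and both are given from the authors' deposited table where it lists them. All 33 and all 32 passed the filter on low values, a minimum of 1 FPKM reached by a number of libraries equal to the smallest group. The rule that picks them uses no measured value, although the set was proposed with earlier results of these data known.

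Cells make cholesterol from acetyl-CoA. The mevalonate steps build isoprenoid units, which are joined to squalene; squalene is closed to lanosterol, and lanosterol is trimmed to cholesterol. When sterol in the endoplasmic reticulum is low, SCAP carries the SREBP transcription factors to the Golgi, where they are cut and released to switch on nearly every enzyme of the path, while INSIG proteins hold SCAP back when sterol is plentiful. Surplus sterol gives oxysterols, which act on the LXR receptors and raise the exporters ABCA1 and ABCG1. In nervous tissue glia are known as a main source of the cholesterol that neurons use.

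The 44 libraries came from C57BL/6 mice and fall into 12 groups. Naive mice of 9 weeks gave 4 libraries of sorted SGCs and 4 of dissociated, unsorted DRGs. Mice of 9 to 11 weeks gave 4 SGC libraries in each of 4 groups, 3 or 14 days after full ligation of the sciatic nerve or after sham surgery. Mice of the same ages gave 20 libraries of neurons taken 8 days after surgery: 4 from the side of a partial ligation and 4 from the opposite side, with no sex given, and 3 each from males and females after partial ligation or sham. The SGCs and the unsorted DRGs came from the L3 and L4 ganglia and were fixed with paraformaldehyde, and the SGCs were then stained and sorted by flow cytometry. The neurons came from L3 to L5, were isolated with a magnetic kit and were not fixed. The labels do not say which libraries shared an animal or whether animals were pooled, so the p-values measure only the spread between these libraries, which may be technical. In such bulk samples fewer cells of a type and less RNA per cell cannot be told apart.

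Promoters are shown here because the enzymes of the path are known as a set under shared control. Whether such control has a part in the differences described later was not tested. The windows hold 250 bases before and 50 after the annotated gene start, from RefSeq (GRCm38.p6), and 28 of the 34 members had an entry; Fdps, Fdft1, Sqle, Abcg1, Stard4 and Npc1 did not. Hmgcs1 makes HMG-CoA, Msmo1 removes methyl groups from the sterol ring, Srebf2 encodes the SREBP best known for this path and Lss closes the ring to lanosterol. Their windows lie at chr13:119690101-119690400 on the plus strand, at chr8:64733529-64733828 on the minus strand, at chr15:82147019-82147318 on the plus strand and at chr10:76531355-76531654 on the plus strand. Capitals mark a match to the sterol regulatory element core TCACNCCA, and each window is printed 5′ to 3′ along its gene.
Hmgcs1: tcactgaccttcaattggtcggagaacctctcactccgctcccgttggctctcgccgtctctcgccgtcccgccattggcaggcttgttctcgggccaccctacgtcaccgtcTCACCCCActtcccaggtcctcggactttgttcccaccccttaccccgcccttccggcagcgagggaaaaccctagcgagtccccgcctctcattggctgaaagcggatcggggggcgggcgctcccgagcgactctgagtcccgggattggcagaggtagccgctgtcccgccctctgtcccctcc
Msmo1: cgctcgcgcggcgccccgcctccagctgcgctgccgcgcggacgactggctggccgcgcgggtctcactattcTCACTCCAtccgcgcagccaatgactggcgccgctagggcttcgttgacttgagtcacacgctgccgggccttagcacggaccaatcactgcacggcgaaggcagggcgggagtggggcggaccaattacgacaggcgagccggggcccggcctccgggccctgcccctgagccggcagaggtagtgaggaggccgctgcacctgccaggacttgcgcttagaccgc
Srebf2: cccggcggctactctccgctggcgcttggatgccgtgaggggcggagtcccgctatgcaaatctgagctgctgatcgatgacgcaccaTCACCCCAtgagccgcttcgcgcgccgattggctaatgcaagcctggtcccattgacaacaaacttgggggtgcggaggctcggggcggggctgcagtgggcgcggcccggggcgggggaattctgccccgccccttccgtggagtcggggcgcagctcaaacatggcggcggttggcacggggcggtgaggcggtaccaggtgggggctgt
Lss: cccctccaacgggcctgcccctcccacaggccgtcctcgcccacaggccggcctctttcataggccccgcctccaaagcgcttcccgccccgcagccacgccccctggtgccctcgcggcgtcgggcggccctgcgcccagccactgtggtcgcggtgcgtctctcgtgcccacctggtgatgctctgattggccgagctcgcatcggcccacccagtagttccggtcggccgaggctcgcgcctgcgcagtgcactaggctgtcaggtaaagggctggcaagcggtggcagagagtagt

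The core TCACNCCA, searched on both strands, was in the windows of 3 members, Hmgcs1, Msmo1 and Srebf2, or 10.7% of the 28, and in the windows of 4.97% of all 27025 genes. The match began at -137, -177 and -162 from the gene start in those 3. The printed window of Lss had none. The CCAAT box CCAAT was in 23 members (82.1%) and in 41.1% of all genes. The GC box GGGCGG was in 24 members (85.7%) and in 38.2% of all genes, and the motif searches did not exclude overlap between motifs. A match describes letters in this window and is not a binding site.

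The SGC markers were higher in sorted SGCs than in naive DRGs, and the neuron markers were higher in neurons than in sorted SGCs. The summed FPKM (a read level divided by transcript length and library size) of 10 SGC markers ran from 9022 to 18630 in sorted SGCs and from 4392 to 6427 in naive DRGs, and that of 10 neuron markers from 84.4 to 671 in sorted SGCs and from 6100 to 8813 in neurons. In the neuron libraries only 3 of the 10 SGC markers had a row. Markers of other cells were present there: 4 myelinating Schwann cell markers summed to 725 to 2845 FPKM and 5 erythrocyte genes to 354 to 24160 FPKM. In sorted SGCs 7 Schwann cell markers summed to 487 to 631 FPKM. FPKM tables do not hold read counts, so the depth of each library is unknown.

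Naive SGCs against DRGs asked which cholesterol genes were enriched in the glia. Most steps stood higher in the sorted glia. Of 33 members tested, 22 rose and none fell at an adjusted p under 0.05 (limma over all 12907 genes tested, Benjamini-Hochberg), which is the threshold for a call throughout. Over all genes 16.9% were called higher and 27.9% lower. The members' median difference was 0.73 on the log2(FPKM + 1) scale, the scale of every difference here, and that of all genes −0.12. On this scale changes of weakly expressed genes come out too small. By role, 3 of 7 mevalonate members rose, 2 of 3 from squalene to lanosterol, 8 of 9 from lanosterol to cholesterol, 2 of 5 control genes, 3 of 5 of the efflux group and 4 of 4 of the transport group.

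In the mevalonate steps, Hmgcs1 (ENSMUSG00000093930, chromosome 13, 119690379 to 119708260, GRCm38) was at 423, 389.8, 406 and 459.5 FPKM in the 4 naive SGC libraries and at 174, 190.5, 171 and 203 FPKM in the 4 DRG libraries. Every SGC library was far above every DRG library, and the difference was 1.18 ± 0.11 (SE; limma adjusted p = 8.68e-05). Idi1, which isomerises the isoprenoid unit, was at 19.6, 11.5, 13.5 and 10.7 FPKM in SGCs and 6.08, 7.92, 6.71 and 8.13 FPKM in DRGs (difference 0.82). Fdps, which makes farnesyl diphosphate, was at 336, 330.3, 399.8 and 331 FPKM in SGCs and 195, 191, 177 and 238 FPKM in DRGs (difference 0.80). Its level is uncertain. In the 3-day sham SGCs its mean FPKM was 74.2% of that of Hmgcs1, while in the authors' deposited table its mean normalised count was 6.01% of that of Hmgcs1. In sham neurons the 2 shares were 235% and 1.92%. The other mevalonate members differed little. Acat2, a thiolase of the first step, was at 46.7 ± 1.47 against 43.5 ± 4.08 FPKM (SD, n = 4 each). Pmvk, phosphomevalonate kinase, was at 85.2 ± 7.30 against 93.3 ± 10.6 FPKM (SD, n = 4 each). Mvk, mevalonate kinase, had a difference of 0.31 ± 0.29 and Ggps1, which makes the geranylgeranyl unit, of 0.03 ± 0.18, and neither passed the test.

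Beyond mevalonate the glia were higher at nearly every step. Sqle, which oxidises squalene, was at 77.5, 89.4, 82.9 and 102 FPKM in SGCs and at 45.6, 46.7, 47.1 and 51.2 FPKM in DRGs (0.87 ± 0.12, limma adjusted p = 0.000535). Lss (ENSMUSG00000033105, chromosome 10, 76531588 to 76557138) was at 33.3, 28.2, 38.2 and 29.4 FPKM in SGCs and at 13.6, 12.4, 13.6 and 18.7 FPKM in DRGs (1.10 ± 0.16, limma adjusted p = 0.000756). Fdft1, which joins the farnesyl units to squalene, did not pass (0.20 ± 0.14, 63.5 ± 7.02 against 55.2 ± 8.34 FPKM), and its annotated exons overlap those of Ctsb. The exons of Tm7sf2 overlap those of Vps51, those of Cyp51 Akap9 and those of Npc1 Rmc1, and how the authors' counting shared such reads is not given in the sources used here. Cyp51, the first demethylase of lanosterol, was at 41.8, 47.9, 45.3 and 40.4 FPKM in SGCs and 21.2, 21.9, 22.8 and 22.4 FPKM in DRGs. Msmo1 (ENSMUSG00000031604, chromosome 8, 64718139 to 64733792) was at 342, 332, 377 and 325 FPKM in SGCs and 145, 183, 149.6 and 204 FPKM in DRGs. Both were about a doubling, at 0.95 and 1.02 on the log2 scale, with no overlap between the groups. Nsdhl, which works next to Msmo1, was at 176, 155, 154 and 143 FPKM in SGCs and 73.2, 72.7, 77.3 and 87.2 FPKM in DRGs (1.01). Dhcr7, the reductase that ends the path, was at 54.5, 65.97, 62.4 and 64.3 FPKM in SGCs and 35.03, 37.8, 32.8 and 42.9 FPKM in DRGs (0.72). The sterol reductases and desaturases rose too: Lbr by 1.07, Sc5d by 0.95, Tm7sf2 by 0.56 and Hsd17b7 by 0.50. Ebp, the sterol isomerase, had a difference of −0.23 ± 0.15 and did not pass.

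Among the control genes Insig1, which restrains SREBP release, had the largest difference of all 33 members tested. It was at 169, 198, 204 and 196 FPKM in SGCs and 50.5, 51.1, 62.8 and 70.4 FPKM in DRGs (1.70 ± 0.14, limma adjusted p = 4.66e-05). Srebf1, which encodes the SREBP better known for fatty acid genes, was at 8.45, 9.80, 11.04 and 12.5 FPKM in SGCs and 4.75, 4.28, 6.32 and 7.41 FPKM in DRGs (0.79, limma adjusted p = 0.0103). Srebf2 was at 8.55, 9.31, 10.8 and 8.24 FPKM in SGCs and 7.18, 7.51, 7.39 and 8.70 FPKM in DRGs, and its difference of 0.23 ± 0.14 did not pass the test. Insig2 (0.03) and Scap (−0.03) stayed near 0 without a call.

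The exporters and storage genes were higher in SGCs as well. Abca1, which loads cholesterol onto lipid-poor apolipoprotein, was at 17.01, 15.1, 16.5 and 17.4 FPKM in SGCs and 5.45, 6.41, 6.36 and 7.46 FPKM in DRGs (1.24 ± 0.13, limma adjusted p = 0.000139). Abcg1, which exports to formed lipoproteins, was at 94.05, 83.5, 67.4 and 79.5 FPKM in SGCs and 42.6, 30.7, 29.05 and 48.5 FPKM in DRGs (1.11). The LXR receptor genes had no call: Nr1h2 differed by −0.06 ± 0.21 and Nr1h3, at 0 FPKM in 1 SGC library and at 7.68 FPKM at most, by −0.02 ± 0.61. Mylip, the LXR target that marks lipoprotein receptors for breakdown, was at 9.39, 8.23, 10.04 and 6.91 FPKM in SGCs and 3.88, 4.61, 5.64 and 5.93 FPKM in DRGs (0.68). Npc1, which moves cholesterol out of the lysosome, was at 34.5, 25.7, 32.1 and 31.5 FPKM in SGCs and 13.6, 14.8, 17.9 and 20.4 FPKM in DRGs (0.86). Its partner Npc2 rose by 0.41. Stard4, a cytosolic sterol carrier, was at 17.6, 15.3, 22.2 and 21.7 FPKM in SGCs and 10.5, 10.7, 12.7 and 10.6 FPKM in DRGs (0.73). Soat1, which esterifies cholesterol for storage, was at 16.2, 13.6, 18.3 and 25.5 FPKM in SGCs and 6.27, 9.16, 7.83 and 12.2 FPKM in DRGs (0.97). In all 22 called members every SGC library stood above every DRG library. The same held for 2158 of all 12907 genes, where 2184 were called higher.

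The unsorted DRGs also hold neurons and other cells, and their markers moved with the comparison: all 10 neuron markers with a row and all 8 macrophage markers fell in the sorted SGCs and all 10 SGC markers rose. Of 9 endothelial markers 5 rose and all 9 differences were positive (summed FPKM 107.5 to 222.5 in SGCs and 48.8 to 94.02 in DRGs), and of 7 dissociation and immediate early genes 6 rose (1049 to 1141 against 532 to 802). Their part in the members' differences was not tested. Quantile normalization moved the median of all genes by 0.29, from −0.12 to 0.16, and the 22 called members then lay 0.49 to 1.82 above that median and kept their calls. The calls on Npc2 and Tm7sf2 rest on the full set of libraries: each was lost when any of 5 of the 8 libraries was left out (SGC replicates 3 and 4, DRG replicates 1, 2 and 3), with adjusted p up to 0.0868 for Npc2 and 0.0931 for Tm7sf2 (limma). The 44 other genes tied to the pathway were split in these data: of 42 tested, 10 rose and 7 fell (median −0.04). Of the isoprenoid use genes 1 rose and 1 fell, with differences from −1.69 to 0.95. Of the sterol transfer genes 3 rose and 4 fell. The examples that follow name more genes that rose than genes that fell. Cyp39a1, an oxysterol hydroxylase, rose by 1.27, the lipoprotein receptor Scarb1 by 1.06, the sterol carrier Gramd1b by 1.04, Fnta, a farnesyltransferase subunit, by 0.95, Acss2, a source of acetyl-CoA, by 0.94 and Tmem97, a sterol-responsive membrane protein, by 0.81, while the lysosomal lipase Lipa fell by 1.49 and Cyp27a1, a sterol hydroxylase, by 1.25.

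**Figure D1:**
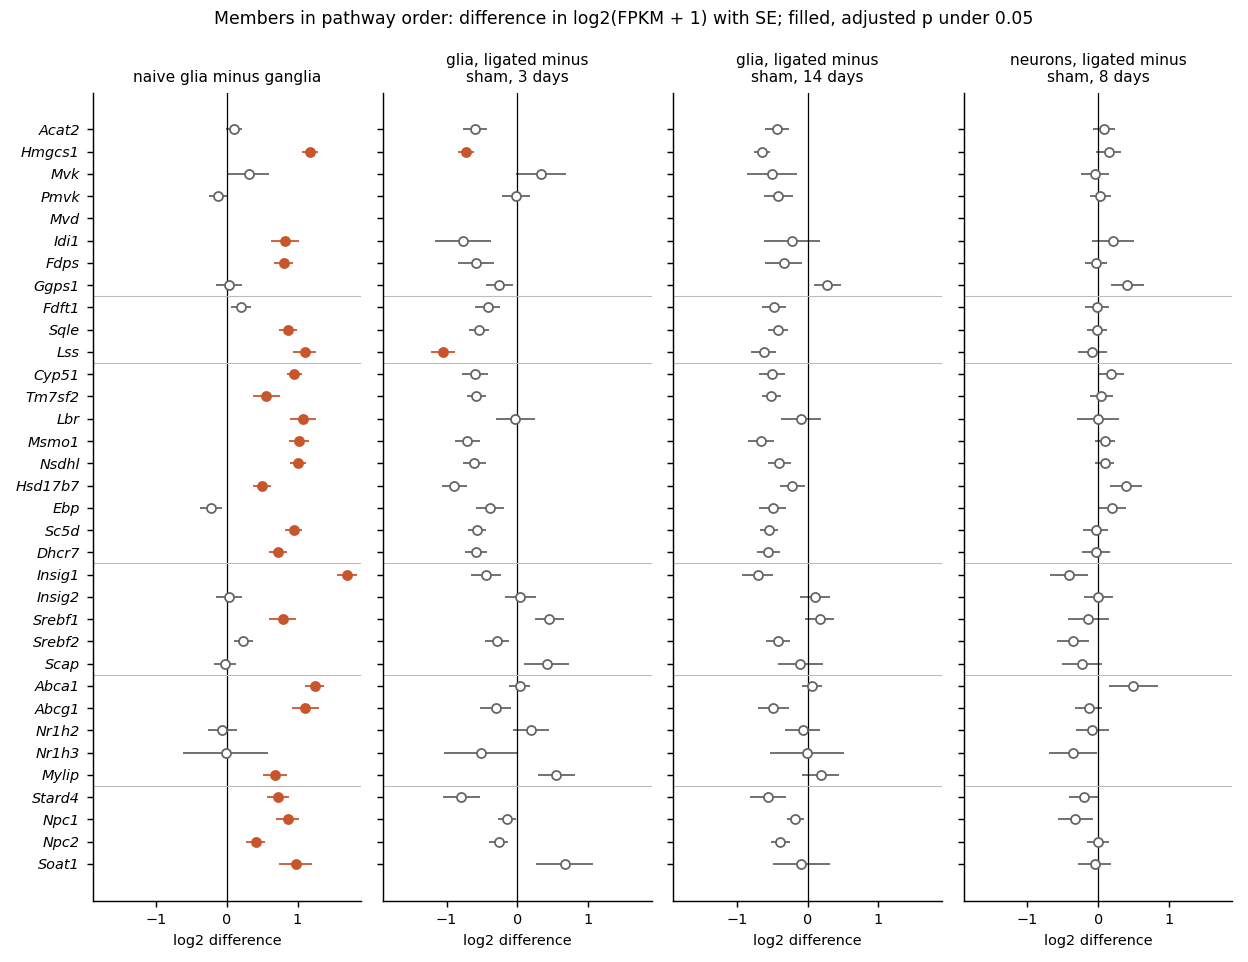
Differences of the members in log2(FPKM + 1), in pathway order from the first mevalonate step (top) to transport and esterification (bottom), for naive SGCs minus DRGs, ligated minus sham SGCs at 3 and 14 days and ligated minus sham neurons at 8 days. Points are limma estimates, bars their SE and filled points adjusted p under 0.05: 22 members are filled in the naive panel, Hmgcs1 and Lss at 3 days and none in the other panels.

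Ligated against sham SGCs at 3 days asked how the pathway stood in the glia soon after nerve injury. Most enzymes stood lower after ligation. Hmgcs1 and Lss fell by 39.7% and 54.6% in mean FPKM, and these were 2 of the 33 members tested, where 0.0215% of all 13924 genes were called lower and 0.0431% higher (limma). Of the 33 differences 25 were negative (median −0.42; all genes −0.01). Among the 19 synthesis members 18 were negative (median −0.58), while among the 5 control genes 2 were, among the 5 efflux and LXR genes 2 and among the 4 transport genes 3. In 11 members, all of them synthesis genes, every ligated library lay below every sham library, and in 1, Srebf1, every ligated library lay above. Over all genes 2.00% lay below in this way and 1.79% above.

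At the head of the path Hmgcs1 was at 234, 209, 218 and 207 FPKM in the 4 ligated libraries and at 366, 326, 337 and 414 FPKM in the 4 sham libraries. All ligated libraries lay in a narrow band below the sham libraries, a ratio of means of 0.603 and a difference of −0.72 ± 0.11 (SE; limma adjusted p = 0.0333). Idi1 was at 5.36, 9.14, 4.76 and 5.63 FPKM after ligation and 25.2, 12.4, 4.94 and 8.82 FPKM after sham (−0.76 ± 0.40, limma adjusted p = 0.607). Its sham libraries were spread widely: without the library at 25.2 the other 3 had a mean of 8.70 ± 3.71 FPKM (SD, n = 3), and the groups overlapped. Fdps was at 172, 182, 187 and 166 FPKM after ligation and 233, 246, 274 and 317 FPKM after sham, without overlap but also without a call (−0.58 ± 0.26, limma adjusted p = 0.519). Acat2 was at 26.5 ± 4.94 against 40.3 ± 3.75 FPKM (SD, n = 4 each), also without overlap. Mvk (0.34) was the only synthesis member with a positive difference, and Pmvk (−0.02) and Ggps1 (−0.26) overlapped between the groups. The authors' deposited table lists Mvd, the decarboxylase of the path, at a log2 fold change of −1.44 ± 0.27 (adjusted p = 9.98e-05).

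Lss was at 14.5, 14.7, 14.6 and 12.5 FPKM after ligation and 42.5, 23.8, 24.7 and 33.01 FPKM after sham. Its ligated libraries lay close together and its sham libraries apart. The ratio of means was 0.454 and the difference −1.05 ± 0.17 (limma adjusted p = 0.0457), the most negative of the 33 members. Sqle was at 70.9, 60.1, 44.4 and 46.5 FPKM after ligation and 80.1, 72.9, 76.5 and 90.2 FPKM after sham, where the highest ligated library came just under the lowest sham library. Its difference was −0.54 ± 0.14 (limma adjusted p = 0.253). Fdft1, the step before them, was at 35.6 ± 5.51 against 48.5 ± 10.6 FPKM (SD, n = 4 each) and overlapped.

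In the last part of the path all 9 members had negative differences and none was called. Cyp51 was at 28.04, 30.3, 24.3 and 20.2 FPKM after ligation and 50.98, 31.1, 33.03 and 44.4 FPKM after sham (−0.60 ± 0.18). Msmo1 was at 219, 164, 171 and 152 FPKM after ligation and 234, 255, 306 and 363 FPKM after sham (−0.70 ± 0.18, limma adjusted p = 0.229). Both groups of Msmo1 were spread, yet its highest ligated library was below its lowest sham library. Nsdhl was at 115, 97.1, 67.8 and 69.2 FPKM after ligation and 113, 134, 124 and 153 FPKM after sham, with 1 ligated library above the lowest sham library (−0.61 ± 0.17). Dhcr7 was at 43.3, 48.99, 39.1 and 36.7 FPKM after ligation and 57.4, 61.8, 56.02 and 79.6 FPKM after sham (−0.58 ± 0.16). Hsd17b7, a ketoreductase that works with Msmo1 and Nsdhl, came nearest to a call among the others, at 16.02 ± 1.25 against 30.9 ± 5.19 FPKM (SD, n = 4 each; −0.89 ± 0.18, limma adjusted p = 0.0896). Tm7sf2 (−0.58) and Sc5d (−0.57) did not overlap between groups, Ebp (−0.39) did, and Lbr, which also anchors chromatin at the nuclear envelope, was near 0 (−0.03).

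The control genes split. Insig1 was at 83.3, 63.7, 115 and 96.4 FPKM after ligation and 122, 115, 132 and 111 FPKM after sham, where 1 ligated library reached the sham range (−0.45 ± 0.21). Srebf1 was at 14.8, 18.7, 16.4 and 14.2 FPKM after ligation and 9.43, 10.1, 12.9 and 13.7 FPKM after sham, so that every ligated library was higher, with a difference of 0.45 ± 0.21 that did not pass (limma adjusted p = 0.531). Srebf2 was at 9.32, 10.7, 8.45 and 7.91 FPKM after ligation and 11.7, 12.7, 9.39 and 11.4 FPKM after sham (−0.28 ± 0.17), with overlap. Insig2 had a difference of 0.04 ± 0.22 and Scap of 0.41 ± 0.31, the latter with 1 sham library at 1.38 FPKM and the other 3 at 6.36 ± 1.77 FPKM (SD, n = 3).

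Neither exporter was called. Abca1 was at 13.3, 14.2, 17.8 and 14.97 FPKM after ligation and 13.99, 15.9, 15.1 and 13.6 FPKM after sham, a difference of 0.03 ± 0.14 with a 95% interval of −0.27 to 0.34. Abcg1 was at 38.3, 31.7, 42.3 and 50.7 FPKM after ligation and 31.4, 47.2, 57.4 and 73.1 FPKM after sham (−0.31 ± 0.22), and its sham libraries alone spanned more than a doubling. Mylip was at 4.77, 14.1, 14.2 and 7.41 FPKM after ligation and 6.42, 5.94, 6.33 and 5.40 FPKM after sham (0.55 ± 0.27), high in 2 of the 4 ligated libraries. Nr1h2 differed by 0.20 and Nr1h3 by −0.51, the latter with 1 sham library at 14.3 FPKM and the others at 1.13 to 5.59 FPKM.

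Of the transport genes, Stard4 was at 5.05, 11.7, 15.7 and 10.4 FPKM after ligation and 19.96, 18.6, 13.9 and 20.2 FPKM after sham (−0.79 ± 0.26, limma adjusted p = 0.354). Its highest ligated library lay within the sham range. Npc1 was at 26.9, 28.5, 30.1 and 29.4 FPKM after ligation and 32.5, 35.6, 27.99 and 32.2 FPKM after sham (−0.15 ± 0.13) and Npc2 at 56.4 ± 10.03 against 67.3 ± 6.88 FPKM (SD, n = 4 each). Soat1 was at 15.1, 82.2, 20.1 and 18.3 FPKM after ligation and 17.6, 10.7, 20.7 and 16.9 FPKM after sham (0.67 ± 0.40). This difference rests on the library at 82.2 FPKM: the other 3 had a mean of 17.8 ± 2.53 FPKM (SD, n = 3) against 16.5 in the sham group, and the authors' deposited table gives Soat1 a log2 fold change of 0.20 ± 0.19.

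The calls on Hmgcs1 and Lss held under a pseudocount of 0.1 (limma adjusted p = 0.0342 for both) and under no other of 14 alternatives, where adjusted p ran up to 0.255 and 0.358. Their differences kept their size, from −0.77 to −0.65 and from −1.16 to −0.89, also with any of the 8 libraries left out. At an unadjusted p under 0.05 stood 15 of the 33 members and 1269 of all 13924 genes. In the authors' deposited table of this comparison 8 of the 34 members are lower after ligation and none is higher, where over all its genes 0.515% are lower and 0.498% higher. The 8 are Acat2, Hmgcs1, Mvd, Lss, Tm7sf2, Msmo1, Hsd17b7 and Sc5d. The authors' deposited table gives Hmgcs1 a log2 fold change of −0.73 ± 0.14 (adjusted p = 9.25e-05), Lss −1.07 ± 0.22 (adjusted p = 0.000463), Hsd17b7 −0.93 ± 0.17 (adjusted p = 7.31e-05) and Msmo1 −0.75 ± 0.16 (adjusted p = 0.00106).

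**Figure D2:**
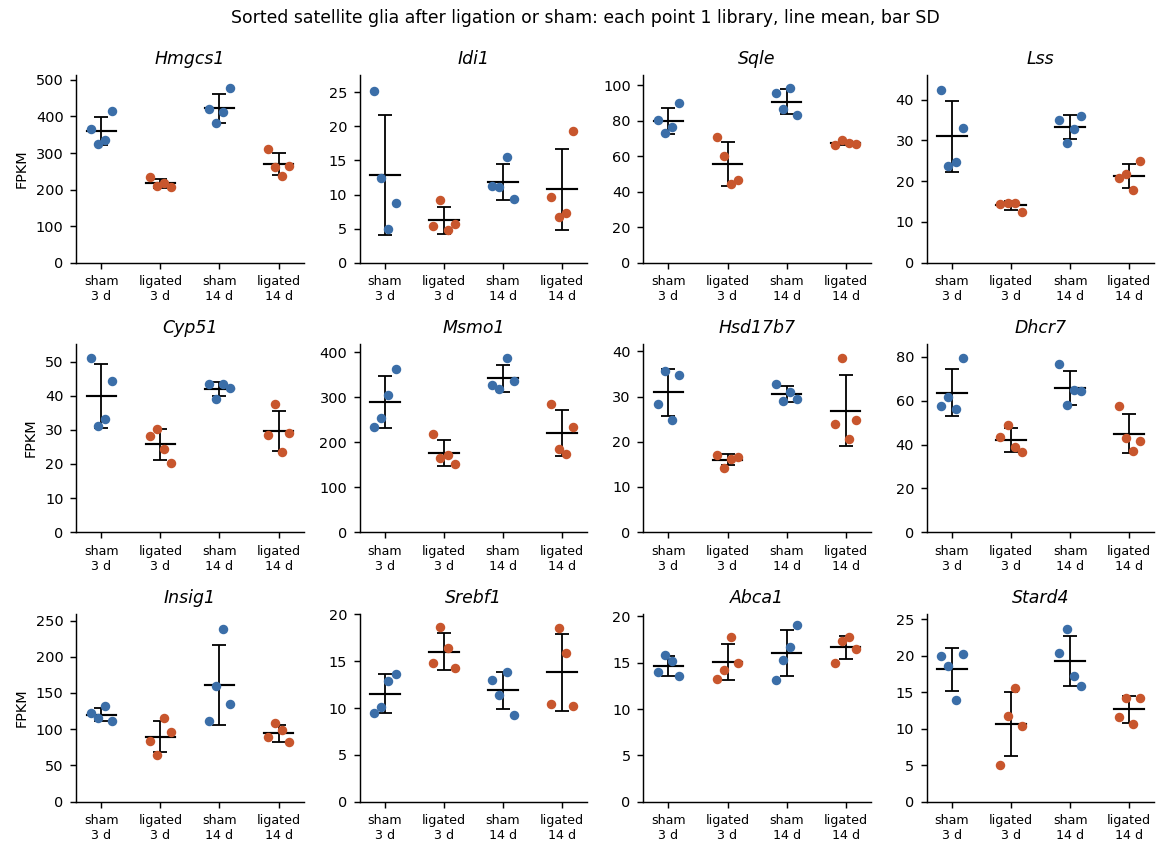
FPKM of 12 members in each SGC library, 3 and 14 days after sham surgery (blue) or ligation (orange). Points are libraries, lines means and bars SD (n = 4). Hmgcs1 sits between 207 and 234 in the 3-day ligated libraries and between 326 and 414 in the sham libraries, while the points of Abca1 lie at 13.3 to 17.8 and 13.6 to 15.9.

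Ligated against sham SGCs at 14 days asked whether the pathway still stood apart later. Most enzymes again stood lower after ligation, without a call. Of the members, 28 of 33 differences were negative (median −0.41; all genes −0.02), and 0 members were called (limma), where 0.00718% of all 13924 genes, a single gene, were called higher and 0% lower. At an unadjusted p under 0.05 stood 17 members and 718 genes. In 14 members, 11 of them synthesis genes, every ligated library lay below every sham library, where 2.38% of all genes lay below and 1.69% above. The other 3 were Insig1, Stard4 and Npc2.

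In the mevalonate steps Hmgcs1 was at 310.5, 262, 238 and 265 FPKM after ligation and 421, 381, 412 and 477 FPKM after sham. The groups stood well apart, with a ratio of means of 0.637, and the difference of −0.65 ± 0.11 did not pass over all genes (limma adjusted p = 0.181). Idi1 was at 9.69, 6.67, 7.25 and 19.4 FPKM after ligation and 11.3, 11.1, 15.5 and 9.38 FPKM after sham (−0.22 ± 0.40), with the highest library of all in the ligated group. Fdps was at 317, 196, 126 and 296 FPKM after ligation and 416, 291, 204 and 241 FPKM after sham (−0.34 ± 0.26), and both groups were spread. Acat2 (−0.43), Mvk (−0.51) and Pmvk (−0.41) were lower on average with overlap, and Ggps1 was the only synthesis member with a positive difference (0.28). The authors' deposited table gives Mvd −0.41 ± 0.16 (adjusted p = 0.252).

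From squalene on, Sqle was at 66.3, 69.2, 67.4 and 66.8 FPKM after ligation and 95.5, 86.4, 98.2 and 83.1 FPKM after sham (−0.42 ± 0.14). The ligated libraries lay within 3 FPKM of each other and all below the sham libraries. Lss was at 20.8, 21.7, 17.9 and 25.04 FPKM after ligation and 35.02, 29.5, 32.7 and 36.04 FPKM after sham (−0.62 ± 0.17), and Fdft1 at 42.6 ± 6.56 against 59.4 ± 5.44 FPKM (SD, n = 4 each), each without overlap. Cyp51 was at 28.5, 37.5, 23.6 and 29.2 FPKM after ligation and 43.5, 38.96, 43.4 and 42.1 FPKM after sham (−0.50 ± 0.18). Msmo1 was at 285, 186, 173 and 234 FPKM after ligation and 327, 318, 387 and 337 FPKM after sham (−0.66 ± 0.18, limma adjusted p = 0.513). Its difference was the most negative of the 19 synthesis members tested. Nsdhl was at 117, 120.3, 121 and 104 FPKM after ligation and 154, 133, 151 and 177 FPKM after sham (−0.40 ± 0.17). Dhcr7 was at 57.6, 43.2, 37.2 and 41.7 FPKM after ligation and 76.7, 57.9, 64.8 and 64.4 FPKM after sham (−0.56 ± 0.16), with its highest ligated library just below its lowest sham library. Tm7sf2 (−0.51), Sc5d (−0.54) and Ebp (−0.50) also did not overlap, while Hsd17b7 (−0.22) and Lbr (−0.09) did.

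Among the control genes Insig1 was at 88.7, 108, 99.6 and 82.01 FPKM after ligation and 112, 159, 238 and 135 FPKM after sham, a difference of −0.71 ± 0.21. Part of it lay in 1 sham library at 238 FPKM, without which the other 3 had a mean of 135 ± 23.8 FPKM (SD, n = 3). Srebf1 was at 10.5, 18.6, 15.9 and 10.3 FPKM after ligation and 13.00, 11.4, 13.8 and 9.30 FPKM after sham (0.17 ± 0.21), and overlapped. Srebf2 was at 10.5, 6.71, 8.77 and 7.35 FPKM after ligation and 13.6, 10.8, 9.71 and 11.6 FPKM after sham (−0.42 ± 0.17), with the highest ligated library inside the sham range. Insig2 (0.10) and Scap (−0.10) were near 0.

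Abca1 was at 14.95, 17.4, 17.8 and 16.5 FPKM after ligation and 13.2, 15.3, 16.8 and 19.05 FPKM after sham (0.06 ± 0.14, 95% interval −0.25 to 0.36), again with overlap. Abcg1 was at 58.01, 47.9, 39.1 and 46.4 FPKM after ligation and 55.3, 68.04, 71.5 and 73.8 FPKM after sham (−0.49 ± 0.22), with 1 ligated library within the sham range. Mylip was at 8.07, 8.14, 10.2 and 9.50 FPKM after ligation and 9.56, 7.17, 6.30 and 8.34 FPKM after sham (0.18 ± 0.27). The LXR receptor genes Nr1h2 (−0.07) and Nr1h3 (−0.01) did not differ beyond their spread. Stard4 was at 11.6, 14.3, 10.6 and 14.2 FPKM after ligation and 20.4, 23.6, 17.2 and 15.9 FPKM after sham (−0.56 ± 0.26), without overlap. Npc1 was at 30.6, 29.1, 27.00 and 31.4 FPKM after ligation and 34.1, 36.7, 27.4 and 36.3 FPKM after sham (−0.17 ± 0.13), and Npc2 at 67.5 ± 4.46 against 88.8 ± 7.66 FPKM (SD, n = 4 each; −0.39) without overlap. Soat1 was at 12.9, 19.97, 15.97 and 24.8 FPKM after ligation and 16.8, 19.1, 18.6 and 22.3 FPKM after sham (−0.09 ± 0.40), and these overlapped.

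For 14 days 8 members are lower and none higher in the authors' deposited table, where over all its genes 0.412% are lower and 0.641% higher. In the authors' deposited table these are Hmgcs1 (−0.63 ± 0.12, adjusted p = 0.000214), Msmo1 (−0.70 ± 0.13, adjusted p = 0.000214), Npc2 (−0.37 ± 0.09), Tm7sf2 (−0.54 ± 0.13), Sqle (−0.41 ± 0.11), Lss (−0.56 ± 0.15), Dhcr7 (−0.54 ± 0.15) and Fdft1 (−0.46 ± 0.13). Of the 8 members lower in the authors' deposited table at each day, 4 are shared, 50% of either list: Hmgcs1, Lss, Msmo1 and Tm7sf2. In the FPKM values 8 members had non-overlapping lower groups at both days, 72.7% of the 3-day and 57.1% of the 14-day list: Hmgcs1, Sqle, Lss, Cyp51, Tm7sf2, Msmo1, Sc5d and Dhcr7, all of them enzymes. The 2 days have separate ligated and sham libraries. The share of all genes lower at both days was not counted for either list, so these overlaps have no background beside them.

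Whether the ligation effect differed between the days was tested as the 14-day difference minus the 3-day difference. No member was called (limma), where 0.00718% of all genes, 1 gene, were called higher and 0% lower, and 1 member, Hsd17b7, had an unadjusted p under 0.05 (0.68 ± 0.25, limma adjusted p = 1), as did 584 of all genes. The median over members was 0.03. Hmgcs1 had a day difference of 0.07 (95% interval −0.27 to 0.42), Msmo1 of 0.04 (−0.49 to 0.58) and Lss of 0.43 (−0.10 to 0.96). Of the 33 members 24 had negative differences at both days, 17 of them among the 19 synthesis members, and 15 of the 24 were smaller in size at 14 days.

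Per library, the median over the 19 synthesis members, taken from the mean of the sham group, lay between −0.74 and −0.40 in the 3-day ligated libraries and between −0.10 and 0.18 in the sham libraries. At 14 days it lay between −0.61 and −0.35 after ligation and between −0.10 and 0.04 after sham. Each ligated library was thus below each sham library at both days. Over the 14 other members the 3-day medians lay between −0.26 and 0.04 after ligation and between −0.08 and 0.10 after sham, and overlapped. At 14 days they were −0.16, 0.04, −0.27 and −0.27 after ligation and between −0.04 and 0.04 after sham, so 3 of the 4 ligated libraries lay below every sham library for these members too.

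**Figure D3:**
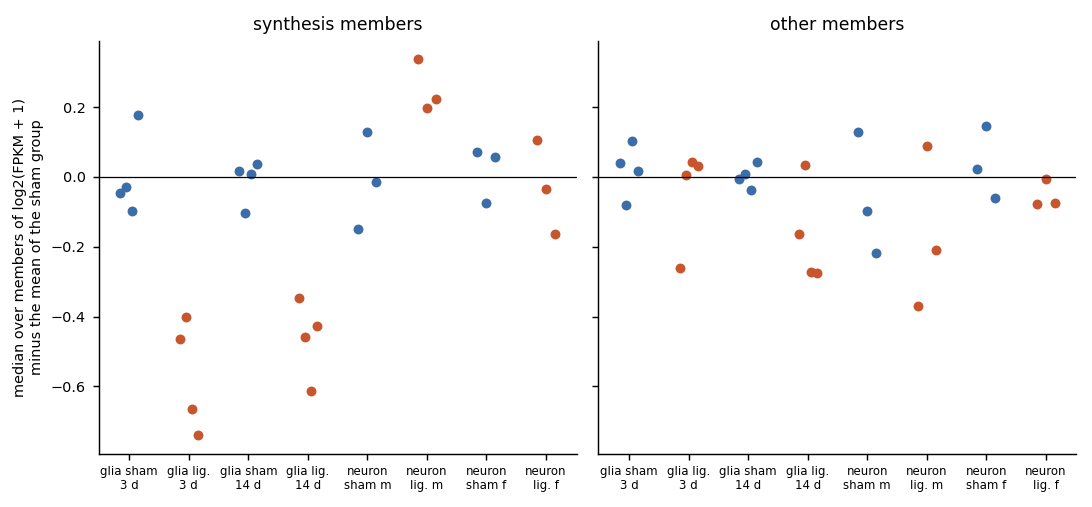
Median over synthesis members (left) and over the other members (right) of log2(FPKM + 1) minus the mean of the sham group, for each library; lig., ligated; m, male; f, female; d, days; blue, sham; orange, ligated. The ligated SGC libraries lie at −0.74 to −0.40 (3 days) and −0.61 to −0.35 (14 days) on the left, and the neuron libraries at −0.17 to 0.34.

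Among the marker lists, only the genes of injured neurons had calls with ligation in the same SGC libraries (limma). The summed FPKM of 9 genes of injured neurons ran from 1296 to 3117 at 3 days and 794.7 to 1863 at 14 days after ligation, against 71.7 to 319 and 134.7 to 226 after sham, and 5 of them rose at 3 days and none at 14 days, where 9 of 9 had an unadjusted p under 0.05 (limma). The sum of 10 neuron markers ran from 322 to 614.5 after ligation and 152 to 671 after sham at 3 days, and from 223 to 659 against 188 to 399 at 14 days. The sum of 9 endothelial markers ran from 265 to 510.1 against 183 to 344 at 3 days and from 229 to 393 against 157 to 307 at 14 days, with 9 of 9 positive and none called at either day. The sum of 8 macrophage markers ran from 2.28 to 24.04 after ligation and 4.88 to 10.1 after sham at 3 days, and from 10.4 to 32.9 against 2.16 to 18.3 at 14 days, where 4 of 4 tested were positive (median 1.09) and none was called or had an unadjusted p under 0.05 (limma). The SGC markers themselves summed to 9022 to 12900 after ligation and 9767 to 13520 after sham at 3 days. The part of these cells in the members' differences was not tested.

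Among the other genes tied to the pathway none was called in SGCs at either day (limma). Of 42 tested, 28 were negative at 3 days (median −0.10) and 23 at 14 days (median −0.03). At an unadjusted p under 0.05 stood 5 and 4 of the 42, and 1269 and 718 of all 13924 genes. The 4 genes that supply acetyl-CoA were negative at both days, with medians of −0.49 and −0.28. Of these, 2 of 4 had non-overlapping lower groups at 3 days and 1 of 4 at 14 days. Over all genes the shares were 2.00% and 2.38%, and a list of 4 genes is too short to set beside them. The 9 tested genes of isoprenoid use had a median of −0.41 at 3 days and 0.08 at 14 days, the 10 of SREBP processing −0.05 and −0.05, the 14 of sterol transfer −0.12 and −0.04 and the 5 of oxysterol metabolism 0.07 and 0.09.

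In neurons 8 days after partial ligation the members' differences lay around 0. The comparison with sham neurons averaged the difference in males and that in females. None of the 32 members tested was called and none had an unadjusted p under 0.05 (limma), where 0.280% of all 12145 genes were called higher and 0% lower and 435 genes had an unadjusted p under 0.05. Of the 32 differences 20 were negative (median −0.02; all genes −0.04), and among the synthesis members 11 of 19 were positive (median 0.04). No member had non-overlapping groups, against 0.692% of all genes above and 0.0988% below. The injury itself showed in these libraries: the 9 genes of injured neurons summed to 1271 to 3465 FPKM after ligation and 264 to 671 after sham, and 7 of them rose (limma).

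In what follows the lowest, median and highest of the 6 ligated and of the 6 sham libraries, both sexes together, are given. Hmgcs1 was at 267, 345 and 429 FPKM after ligation and 229, 299.6 and 419 FPKM after sham (0.15 ± 0.17, 95% interval −0.22 to 0.51). Idi1 was at 21.3, 27.9 and 40.8 against 16.2, 28.5 and 34.6 FPKM (0.21), and Fdps at 505, 718 and 885 against 622, 702 and 889 FPKM (−0.03). All 3 overlapped over most of their range. Sqle was at 159, 186 and 239.7 against 157, 198 and 222 FPKM (−0.02, 95% interval −0.32 to 0.28). Lss, at low levels in neurons, was at 7.95, 9.90 and 12.4 against 6.76, 10.9 and 14.7 FPKM (−0.08, 95% interval −0.51 to 0.35). The intervals of these enzymes held 0, and that of Sqle reached no further down than −0.32.

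The demethylase Cyp51 was at 31.2, 37.9 and 51.1 after ligation against 23.7, 36.4 and 40.2 FPKM after sham (0.19), and Msmo1 at 187, 197 and 275 against 153, 196 and 242 FPKM (0.09, 95% interval −0.21 to 0.40). Nsdhl was at 80.4, 91.8 and 118 against 74.4, 92.3 and 92.98 FPKM (0.09) and Dhcr7 at 59.6, 107 and 139 against 80.1, 97.1 and 133 FPKM (−0.03). None of the 4 differed beyond the spread between libraries. The other synthesis members ran from −0.08 (Lss) to 0.42 (Ggps1), with Hsd17b7 at 0.40 ± 0.23.

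The differences of the 5 control genes ran from −0.41 to −0.001 (median −0.22), none called. In the authors' deposited table Insig2 was positive (0.13 ± 0.15) and the others were negative. Insig1 was at 7.05, 22.3 and 23.6 after ligation against 20.8, 23.4 and 27.3 FPKM after sham (−0.41 ± 0.27), Srebf1 at 2.98, 8.06 and 11.6 against 5.65, 8.10 and 9.51 FPKM (−0.14 ± 0.29) and Srebf2 at 10.2, 19.4 and 25.05 against 18.7, 24.8 and 27.9 FPKM (−0.36 ± 0.23). The ligated libraries of all 3 spread more widely than the sham libraries. Abca1 was at 2.88, 4.91 and 7.62 after ligation against 2.06, 3.19 and 4.71 FPKM after sham, with a difference of 0.50 ± 0.35, the largest of the 32 members and not called (limma adjusted p = 0.999). Abcg1 was at 23.6, 34.5 and 38.1 against 25.7, 35.9 and 48.2 FPKM (−0.13). Nr1h3, the LXR gene of macrophages and liver, was at 0 in 2 ligated libraries and at 3.35 FPKM at most. Stard4 was at 8.83, 10.9 and 13.7 against 10.3, 12.1 and 17.02 FPKM (−0.20), Npc1 at 2.92, 4.84 and 6.66 against 5.41, 5.96 and 7.35 FPKM (−0.32) and Soat1 at 1.67, 2.85 and 3.28 against 1.85, 3.06 and 3.60 FPKM (−0.05). These transport genes overlapped between the groups.

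The authors' deposited table for the neurons lists none of the 33 members with an adjusted p as changed, where 1.38% of its genes are higher and 0.323% lower. In the authors' deposited table Hsd17b7 came nearest (0.49 ± 0.15, adjusted p = 0.0597). Of the 34 members the authors' deposited table has 22 with positive and 12 with negative fold changes (median 0.06), the opposite balance to the FPKM differences. The authors' deposited table gives Mvd 0.06 ± 0.18 and lists Mylip at 0.29 ± 0.23 with no adjusted p. The sign was the same as that of the FPKM difference for 22 of 32 members, against 31 of 33 in the 3-day and 30 of 33 in the 14-day SGCs. SGCs and neurons were taken at other days, after other ligations, and were scaled in separate tables, so the size of their differences is set side by side and was not tested.

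Males and females were compared as the male minus the female ligation difference. No member was called and none had an unadjusted p under 0.05 (limma), and over all genes 0% were called higher and 0% lower, with 130 at an unadjusted p under 0.05. Of the synthesis members 18 of 19 were positive (median 0.30; all genes −0.08). Neuron markers (8 of 10 positive, median 0.22) and Schwann cell markers (3 of 4, median 0.26) leaned the same way. SGC (1 of 3 positive), endothelial (1 of 6), erythrocyte (1 of 5), injured neuron (1 of 9) and immediate early genes (0 of 5) leaned the other way. The part of cell content was not tested. Per library, their median lay between 0.20 and 0.34 above the mean of sham in ligated males, against −0.15 to 0.13 in sham males, and between −0.17 and 0.11 in ligated females, against −0.08 to 0.07 in sham females. Among the synthesis members Dhcr7 had the largest such difference, 0.79 ± 0.39, with 138, 139 and 97.00 FPKM in ligated males, 81.3, 132 and 80.1 FPKM in sham males, 117, 73.8 and 59.6 FPKM in ligated females and 133, 102 and 91.8 FPKM in sham females. The ligated and sham values of each sex overlapped for Dhcr7. Over all 32 members the difference largest in size was that of Srebf1, −0.84 ± 0.58, and it was not called (limma adjusted p = 1).

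Neurons of the ligated side against those of the opposite side again gave no call. None of 32 members was called and none had an unadjusted p under 0.05 (limma), where 0.659% of all genes were called higher and 0.00823% lower, with 1196 at an unadjusted p under 0.05. The median over members was 0.05 and over all genes −0.01. Hmgcs1 was at 352, 280.2, 236 and 267 FPKM on the ligated side and 278, 185, 279 and 333 FPKM on the opposite side (0.09 ± 0.21). Lss was at 10.01, 8.82, 12.2 and 9.56 against 10.2, 17.00, 8.73 and 8.74 FPKM (−0.09 ± 0.25) and Msmo1 at 184, 201, 191 and 176 against 186, 134, 209 and 206 FPKM (0.05 ± 0.18). The second opposite-side library in these lists stood apart for several members: lowest for Hmgcs1 and Msmo1 and highest for Lss. Its Acat2 was at 144 FPKM where the other 3 were at 259.8 to 262.5 and its Fdft1 at 114 where they were at 241 to 272.5. Its summed FPKM of myelinating Schwann cell markers was 725 where the others had 1467 to 1733, and the part of this in its values was not tested.

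Abca1 was at 6.88, 6.91, 3.88 and 6.05 FPKM on the ligated side and 1.55, 13.4, 2.61 and 2.77 FPKM on the opposite side, where that library alone was at 13.4. With all libraries the groups of Abca1 overlapped, and its difference was 0.52 ± 0.43. Without the library at 13.4 FPKM the difference was 1.06 ± 0.33, also without a call (limma adjusted p = 0.283). Idi1 was at 41.1, 36.8, 22.4 and 43.3 against 24.5, 7.30, 33.7 and 30.9 FPKM (0.70 ± 0.36), which became 0.23 without that library. Scap, the SREBP escort, was at 4.82 ± 1.09 against 9.02 ± 4.46 FPKM (SD, n = 4 each; −0.71) and at −0.44 without it. The other exemplars overlapped as well. Fdps was at 631, 536, 605 and 541 against 573, 642, 985 and 565 FPKM (−0.22), Sqle at 166, 188, 170.1 and 217 against 189, 120.3, 197 and 169 FPKM (0.15) and Cyp51 at 41.5, 38.3, 38.3 and 21.5 against 31.4, 28.7, 41.5 and 37.5 FPKM (−0.02). None of these enzymes differed beyond the spread. Nsdhl was at 76.6, 100.4, 88.6 and 78.8 against 72.6, 65.4, 87.5 and 98.6 FPKM (0.10), Dhcr7 at 77.01, 82.2, 81.2 and 89.98 against 85.9, 48.6, 80.3 and 91.6 FPKM (0.15) and Insig1 at 15.9, 24.7, 19.5 and 28.5 against 25.5, 38.8, 15.9 and 12.00 FPKM (0.04). Srebf1 and Srebf2, the SREBP genes, had −0.03 and −0.42, with Srebf1 at 5.46, 9.14, 8.09 and 7.07 against 9.96, 8.80, 9.87 and 3.53 FPKM and Srebf2 at 13.7, 15.8, 17.8 and 21.9 against 24.2, 34.1, 22.5 and 15.4 FPKM. Abcg1 was at 31.9, 44.4, 28.2 and 43.9 against 32.2, 26.2, 25.9 and 36.4 FPKM (0.28), Stard4 at 11.04, 5.44, 11.4 and 12.8 against 12.03, 14.5, 7.54 and 14.7 FPKM (−0.26) and Npc1 at 5.02, 3.56, 8.83 and 6.58 against 6.43, 2.70, 5.74 and 6.63 FPKM (0.13). Soat1, the esterifying enzyme, was low throughout, at 3.04, 1.58, 2.39 and 0.932 against 2.30, 1.95, 2.01 and 2.68 FPKM (−0.17).

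The order of levels within a library differed between glia and neurons. FPKM is per length, so members can be ranked within a table, but the SGC and neuron tables were scaled separately and their levels are a description. In 3-day sham SGCs Hmgcs1 was highest (360.4 ± 39.3 FPKM; SD, n = 4), before Msmo1 (289.6 ± 57.9), Fdps (267 ± 37.4), Sc5d (160.4 ± 11.9), Tm7sf2 (158 ± 12.1), Nsdhl (131 ± 16.8) and Insig1 (120.2 ± 8.95). For neighbours in this order from Hmgcs1 to Fdps and from Sc5d to Insig1 the mean ± SD overlapped. The lowest was Scap (5.11 ± 2.88), before Nr1h3 (5.89 ± 5.91) and Mylip (6.02 ± 0.466). In sham neurons Fdps led (723 ± 98.5; SD, n = 6, uncertain as above), before Hmgcs1 (307 ± 76.3), Fdft1 (264 ± 18.6), Acat2 (259.9 ± 36.03), Msmo1 (197 ± 33.7), Sqle (195 ± 25.1) and Pmvk (188 ± 22.5). From Hmgcs1 to Pmvk the mean ± SD of neighbours overlapped. Nr1h3 (1.39 ± 1.25), Soat1 (2.85 ± 0.647) and Abca1 (3.30 ± 0.926) were lowest.

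Ratios within a library do not depend on the scaling of the table, and were formed for pairs chosen after the levels were seen. Fdft1 over Lss had group medians of 1.62 in 3-day and 1.84 in 14-day sham SGCs and of 25.04 in male and 27.5 in female sham neurons, with ranges of 1.09 to 2.21, 1.56 to 1.91, 22.3 to 26.6 and 16.2 to 37.9. The neuron values thus lay well above the glial ones in every sham library. In opposite-side neurons the ratio ran from 6.70 to 31.2, lowest in the library that stood apart and was low in Schwann cell markers. The part of Schwann cell RNA and of the different preparations in these ratios was not tested. Acat2 over Hmgcs1 had medians of 0.112 and 0.107 in the sham SGCs and 0.899 and 0.812 in the sham neurons. Insig1 over Hmgcs1 went the other way, with medians of 0.345 and 0.351 in sham SGCs and 0.0759 and 0.0798 in sham neurons. Npc1 over Npc2 had medians of 0.480 and 0.386 in sham SGCs and 0.133 and 0.129 in sham neurons, and Soat1 over Npc2 0.256 and 0.215 against 0.0711 and 0.0679. Within 3-day SGCs Fdft1 over Lss was 2.27 to 2.88 after ligation and 1.09 to 2.21 after sham, without overlap, and at 14 days 1.54 to 2.48 against 1.56 to 1.91, with overlap.

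**Figure D4:**
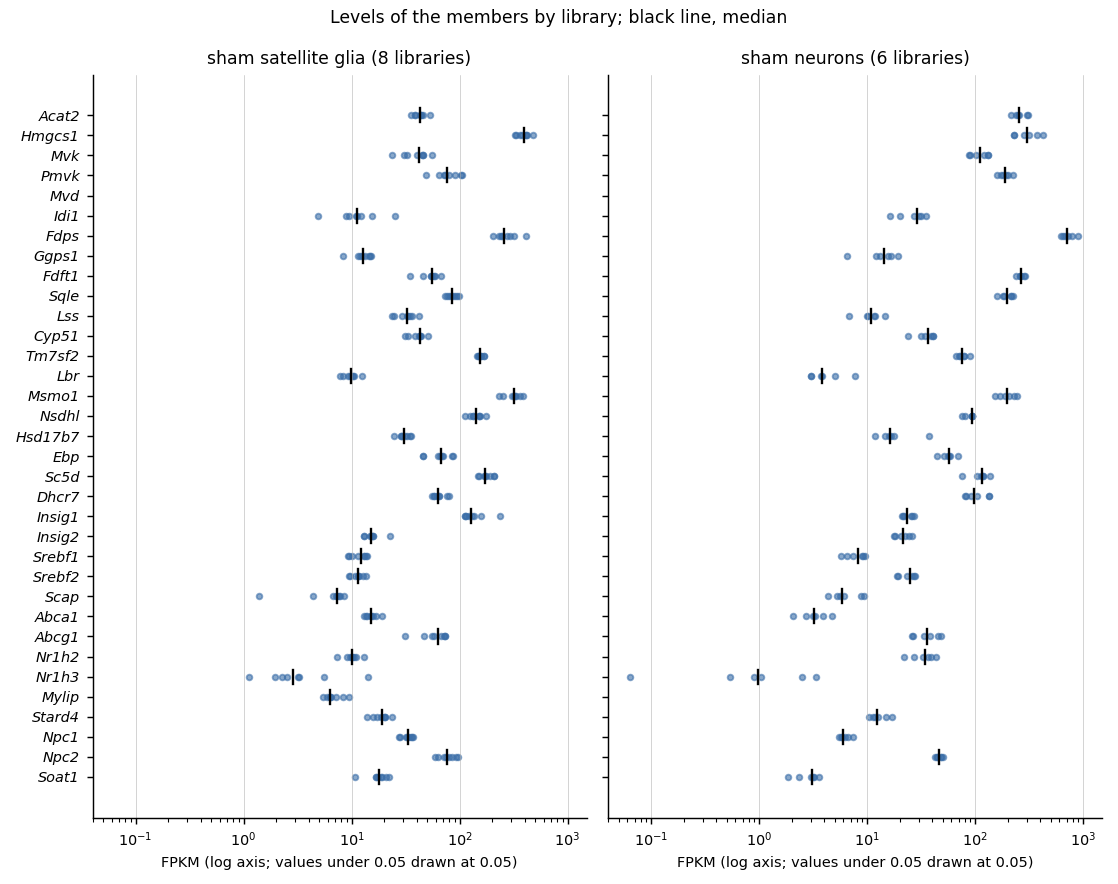
Level of each member in FPKM (log axis) in the 8 sham SGC libraries (left, 3 and 14 days together) and the 6 sham neuron libraries (right, both sexes together), in pathway order. Points are libraries and black lines medians, and the tables were scaled separately. Lss lies at 23.8 to 42.5 on the left and 6.76 to 14.7 on the right, and Fdft1 at 34.7 to 66.98 and 237 to 291.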

How the data were processed

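Levels were taken from 3 deposited tables of FPKM per gene and library, for naive SGCs and DRGs, for SGCs after surgery and for neurons. The build was mm10 and the authors' tools were Cufflinks, DESeq2, SAMtools and STAR, per the submitters' processing notes; tool versions are not given in the sources used here. The naive table writes FPKM with decimal commas, which the authors deposited as text, and it was read as FPKM. The authors' deposited tables of comparisons give mean normalised counts (a signal), log2 fold changes and p-values. Their sign ran opposite to ligated minus sham in 121 of 122 (3 days), 152 of 153 (14 days) and 223 of 223 (neurons) genes they call, so it was turned here. A further deposited comparison table was not used.

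Values were taken to log2(FPKM + 1). Genes were kept where the number of libraries at 1 FPKM or more reached the size of the smallest group fitted, and were tested with limma 3.58.1 (R 4.3.3, mean-variance trend), with 1 fit per table over all its groups, Benjamini-Hochberg adjustment over all genes tested and a threshold of 0.05. The fit was tested on simulated data. Alternatives were a pseudocount of 0.1, no filter, quantile normalization, array weights, a replicate block, only the groups compared and each library left out. Tables and plots were made with pandas 2.3.3 and Matplotlib 3.10.9. The number of libraries and their unknown depth limit the precision.

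The members and the lists of other pathway genes, markers and motifs were chosen with earlier results of these data known. Values in every library are given for members called after ligation and for 18 members standing for the steps. Neurons against sham are an exception, with the lowest, median and highest library for most of them, and Mylip has no row in neurons. The other members are given by group means, differences or counts. Genes outside the members are given by counts, with up to 4 examples a list, chosen among those called by the size of the difference within its list.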

Additional observations from a re-analysis of the deposited data

Results flagged for a closer look

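In groups of 4 libraries the highest or lowest was marked by its gap to the nearest other library. The mark was set where this gap took up more of the group's range than Dixon's 95% limit allows. Gap and range were on the log2(FPKM + 1) scale, while the values printed below are FPKM. Of 262 groups tested 20 were marked, and chance marks about 1 in 20.

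The opposite-side neuron library described above was marked for 4 members: it was lowest for Acat2 (144.3 FPKM, others 259.8 to 262.5), Fdft1 (113.9, others 241.1 to 272.5) and Sc5d (64.1, others 107.5 to 112.1) and highest for Scap (15.67, others 6.126 to 7.234). Another opposite-side library was lowest for Srebf1 (3.531, others 8.797 to 9.957) and Nr1h2 (21.37, others 40.4 to 42.94). Nr1h3 was highest in 1 opposite-side library (0.7023) and in 1 ligated-side library (0.6011), with the others at or near 0. Cyp51 was lowest in 1 ligated-side library (21.47, others 38.27 to 41.48).

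Among naive libraries, Fdps was highest in SGC replicate 3 (399.8, others 330.3 to 336.2). In DRG replicate 2 Ggps1 was highest (20.14) and Tm7sf2 lowest (62.38), in DRG replicate 3 Scap (7.752) and Stard4 (12.66) were highest, and in DRG replicate 4 Lbr was (6.454).

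In SGCs after surgery, Soat1 was highest in 3-day ligated replicate 2 (82.18, others 15.06 to 20.06) and Lss lowest in 3-day ligated replicate 4 (12.46, others 14.48 to 14.74). Insig2 was lowest in 3-day ligated replicate 1 (8.812, others 17.17 to 17.31) and highest in 14-day sham replicate 3 (22.75, others 15.09 to 15.73). Nr1h2 was highest in 14-day ligated replicate 2 (19.69, others 7.254 to 8.103).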

How the results depend on the processing

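No called member changed sign under the alternatives run. The member median, near 0 in 3 comparisons, did change sign: it ran from −0.03 to 0.07 for the day difference (0.03 as reported), from −0.06 to 0.03 for neurons against sham (−0.02) and from −0.07 to 0.10 for the opposite side (0.05), where it was −0.066 without the library that stood apart. Of the naive calls, 20 of 22 held in all 13 alternatives; Npc2 also lost its call under the replicate block, and Tm7sf2 without the filter and with array weights. The naive member median was 0.94 under quantile normalization. At 3 days the 9 genes called became 14 with a pseudocount of 0.1, 1 without the filter, 5 with array weights, 1 with the replicate block and 4 with only the groups compared, and the 2 members called became 0 under no filter, quantile normalization, array weights, the replicate block and only the groups compared. With 1 library left out they were 0 to 0 members and 1 to 6 genes, and the member median ran from −0.47 to −0.32. At 14 days the member median was −0.35 under quantile normalization, array weights called 1 member and 10 genes, the replicate block 0 genes and only the groups compared 6, and leaving out a library gave 0 to 5 genes. For the day difference the replicate block called 0 genes and leaving out a library 1 to 4; using only the groups compared is the same fit. In neurons leaving out a library gave 21 to 39 genes against sham. For the sex difference it gave 0 to 1 genes and member medians of 0.060 to 0.24, and for the opposite side 62 to 119 genes and medians of −0.066 to 0.10. Only the groups compared gave 36 genes for the opposite side. The causes were not tested.

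Same-numbered libraries deviated together little: their correlation ran from 0.00273 to 0.186 in the naive, −0.0758 to 0.00307 in the 3-day and −0.0384 to 0.0687 in the 14-day groups. In these groups 2, 0 and 1 of 4 correlated best with their own number. Such values cannot tell whether same-numbered libraries shared an animal or a batch, so what the replicate block joins is unknown. For the neuron comparisons alone, no paired analysis was possible because the neuron columns carry no shared replicate numbers.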
